A study of Mus musculus with 6 samples.

Results

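The 40 cell cycle genes described here are the machinery of DNA replication and of mitosis, followed in dorsal root ganglia of wild-type (WT) and dt27J mice. The ganglia are the clusters of sensory neurons and glia beside the spinal cord. The list holds 16 replication genes and 24 mitosis genes, and leaves out kinesins other than the kinetochore motor Cenpe. They are 40 of the 17178 gene symbols that the array's probes could be given. A probe was taken as a member when the transcript it is listed under belongs to a member symbol, which gave 56 probes and at least 1 for every gene.

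The study set 3 WT animals, described as littermate controls, against 3 dt27J animals at postnatal day 4, all on the C57BL/6 background and from 2 litters. dt27J is an allele of Dst, the gene for the cytoskeletal linker dystonin, and the series calls this age pre-phenotype; the labels give no zygosity. RNA of whole ganglia was hybridised to 1 single-colour array per animal. Replicates 1 and 2 of each genotype carry a first date in their labels and replicate 3 of each a second, with slide and scan day following the date.

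Dividing cells copy their DNA once and then part the copies. Before S phase the MCM helicase is loaded on origins with the help of Cdc6, and E2F transcription factors, released as cyclin E and Cdk2 act on Rb, switch on the replication genes. A later wave in G2, controlled by factors such as Foxm1 and the DREAM and MuvB complexes, brings on cyclin B, Cdk1, Plk1, the Aurora kinases and the spindle checkpoint. Sensory neurons of the ganglion have left the cell cycle before birth, whereas Schwann cells, satellite glia, vessel cells and connective tissue still divide in the first postnatal days. These are bulk samples, so more cycling cells and more transcript per cycling cell cannot be told apart.

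Values are log2 signals relative to the 75th percentile of the array, so 0 is the signal at that percentile and a step of 1 is a doubling of signal. Levels are compared between arrays for the same probe and never between probes. Dst, the mutated gene, checked the labels: its brightest probe read 1.15, 1.44 and 1.1 on WT 1, 2 and 3 and -1.63, -1.77 and -0.96 on dt27J 1, 2 and 3. It fell by 2.68 (SE 0.26, adjusted p = 0.0341, limma). All 10 sensory neuron markers were measured on these arrays, as were 11 of 12 markers of Schwann cells and satellite glia. On an array, 63.1% to 71.5% of the probes were well above background, and no probe was saturated.

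Testing required that a genotype have all 3 of its arrays well above background for the probe. That held for 49 of the 56 member probes and for 38 of the 40 genes, and 48 of the 49 were well above background on all 6 arrays. The kinase Cdk2, the partner of cyclin E, and Ttk, the checkpoint kinase Mps1, stayed untested. The brighter Cdk2 probe was well above background on 1 array of each genotype and read -5.69, -6.97 and -3.67 on WT 1, 2 and 3 and -5.91, -5.94 and -2.51 on dt27J 1, 2 and 3. The Ttk probe was likewise well above background on 1 WT and 1 dt27J array, and read between -7.66 and -5.11. The other 5 untested probes were the dimmer Cdk2 probe and 1 further probe each of Cdk1, Cdc25c, Cenpe and Cenpf, genes that kept at least 1 tested probe.

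Cell cycle transcripts stood higher in dt27J than in WT ganglia for every tested gene, by a modest amount and with few single genes past the threshold. A gene is represented here by its brightest tested probe. All 38 genes had a positive change, between 0.085 and 1.17 on the log2 scale, with a median of 0.68 beside -0.050 over all 26248 tested probes, of which 46.4% had a positive change. Of the 49 member probes 47 had a positive change. At an adjusted p under 0.05 (limma with the date as a block, adjusted over all tested probes), 2 of the 49 passed, both higher, for Top2a and Mki67. That is 4.08% of the member probes beside 3.19% of all tested probes called in either direction and 1.31% called higher, and it rests on 2 probes. Without WT 1, WT 2, dt27J 1 or dt27J 2 the count was 0, with 9, 15, 12 and 17 member probes at an unadjusted p under 0.05. Those are 18.4%, 30.6%, 24.5% and 34.7% of the 49, beside 15.9%, 19.0%, 17.0% and 21.8% of all tested probes, both counted in either direction. Without WT 1 the members were close to that background. Without the date block it was also 0, with 25 at an unadjusted p under 0.05. With the block the number was also 25 (51.0%), beside 27.7% of all tested probes.

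**Figure D1:**
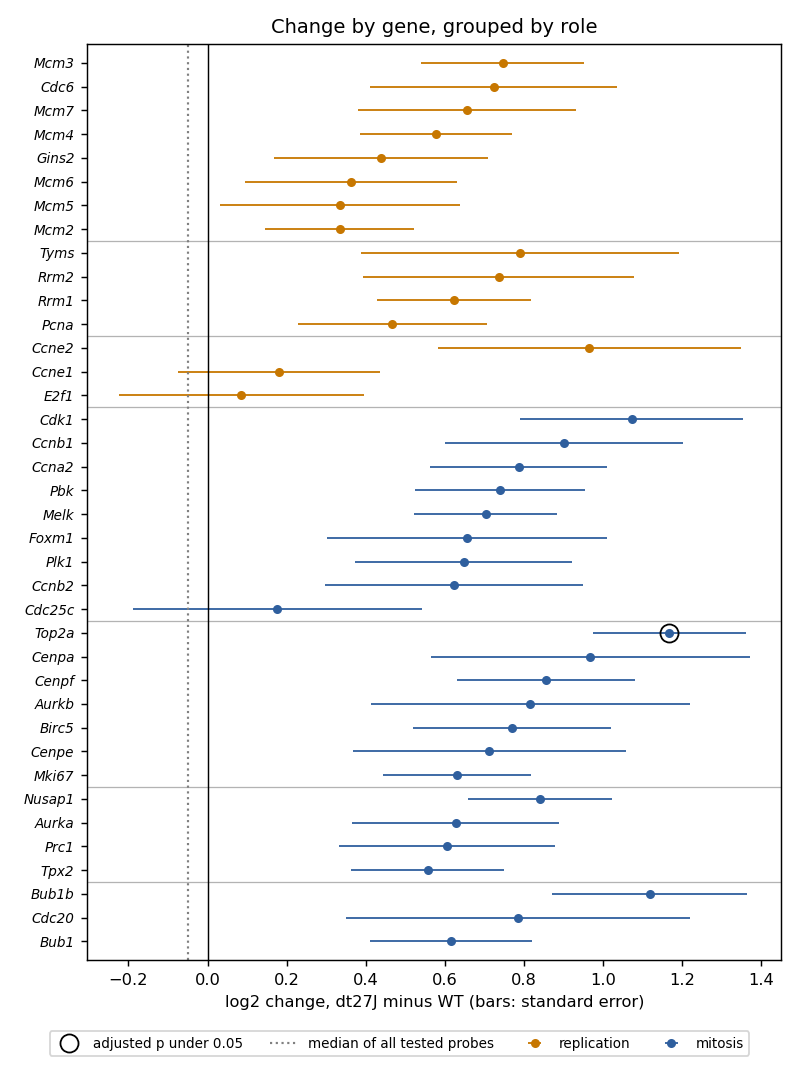
Log2 change (dt27J minus WT, horizontal axis) of each tested gene's brightest probe, with its standard error from 3 arrays per genotype; replication genes are orange, mitosis genes blue, horizontal lines part the roles, the circle marks an adjusted p under 0.05 and the dotted line is the median of all tested probes at -0.050. All 38 points lie above 0, from E2f1 at 0.085 to Top2a at 1.17.

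Read without a threshold, the members stood apart by sign and by order. On 23 of the 49 probes (46.9%) every dt27J array lay above every WT array, beside 12.8% of all tested probes, and on 0 of the 49 did every dt27J array lie below, beside 16% of all probes. At gene level 18 of 38 did not overlap, 13 of 23 mitosis genes and 5 of 15 replication genes. A dt27J array gave the highest of the 6 values for 36 of the 38 genes, and dt27J 1 alone for 24. Over all tested probes dt27J 1, 2 and 3 were highest for 20.5%, 15.2% and 18.6%. WT 1 or WT 2 gave the lowest for 33 of the 38 genes, where WT 1 was lowest for 10.3% and WT 2 for 13.0% of all tested probes. For scale, WT 1 and WT 2 differed by a median of 0.19 over these genes, dt27J 1 and dt27J 2 by 0.22, and the median standard error of the change was 0.27.

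**Figure D2:**
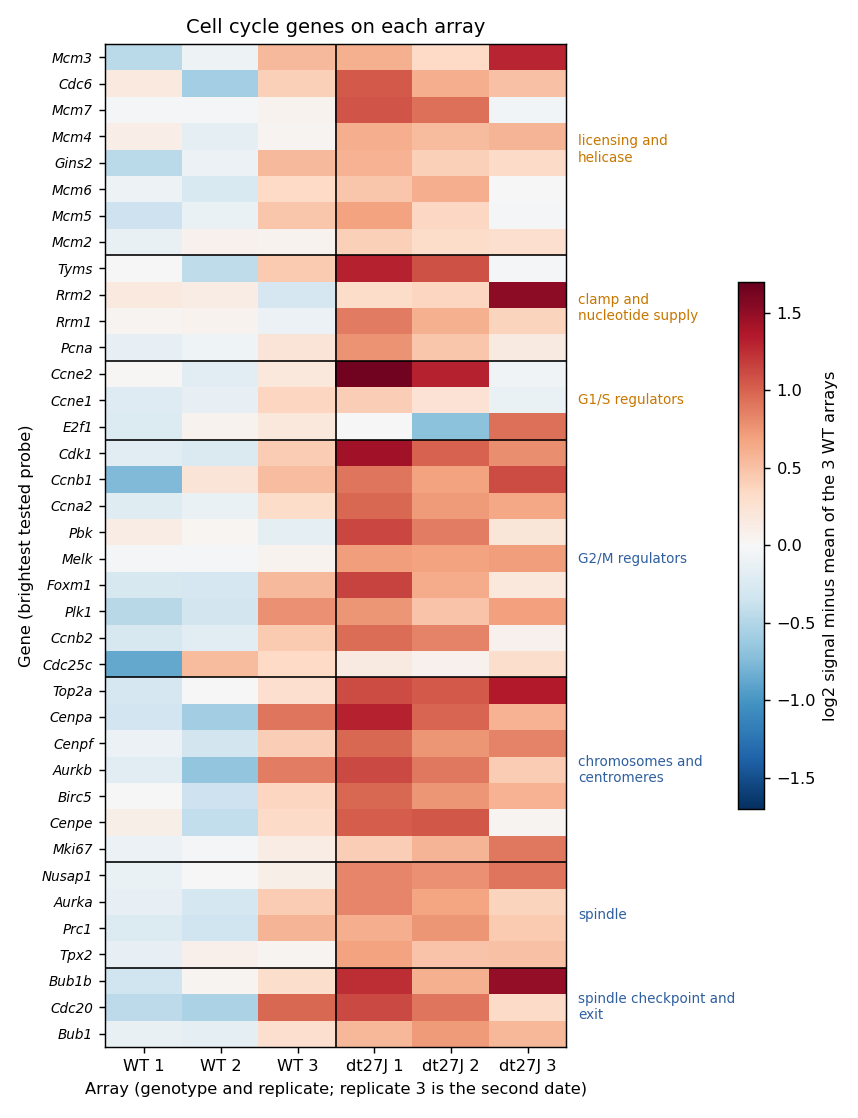
Log2 signal of the 38 tested genes (rows, grouped by role) on the 6 arrays (columns), each gene relative to its mean over the 3 WT arrays; red is higher and blue lower. dt27J 1 and dt27J 2 are red for nearly all genes, WT 3 is paler red on many genes, and dt27J 3 ranges from near white (Tyms, Ccne2) to deep red (Rrm2, Bub1b).

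Top2a, the topoisomerase that untangles sister chromatids, gave the largest change of the 38. Its brightest probe read -2.91, -2.63 and -2.33 on WT 1, 2 and 3 and -1.51, -1.59 and -1.27 on dt27J 1, 2 and 3. Each dt27J array lay above each WT array, with WT 3 the highest of its group. The probe rose by 1.17 (SE 0.19, adjusted p = 0.0455, limma), a 2.25-fold increase with a 95% interval of 1.63 to 3.09. The change was 1.22 within the first date and 1.06 within the second. A dimmer Top2a probe, well above background on 2 of 3 WT arrays, stood at 0.080 (SE 0.38) and turned negative under 4 of the settings tried.

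Mki67 encodes Ki-67, the coat protein of mitotic chromosomes that is widely used to mark cycling cells. The probe that passed read -0.37, -0.74 and -0.66 on WT 1, 2 and 3 and 0.39, 0.41 and 0.51 on dt27J 1, 2 and 3. The groups were separate, with the 3 dt27J arrays close together. It rose by 1.03 (SE 0.20, adjusted p = 0.0497, limma), or 2.04-fold, and by 0.96 and 1.17 within the first and second dates. The brighter Mki67 probe read 2.89, 2.96 and 3.12 in WT and 3.41, 3.57 and 3.89 in dt27J, again without overlap, and stood at 0.63 (SE 0.19, adjusted p = 0.0923).

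The other chromosome and centromere genes had changes of 0.71 to 0.97, and none passed. Cenpf, a large kinetochore protein that accumulates in G2, read 0.90, 0.68 and 1.42 in WT and 1.97, 1.75 and 1.85 in dt27J. It stood at 0.86 (SE 0.23, adjusted p = 0.0740) without overlap. Birc5, or survivin, a subunit of the chromosomal passenger complex, read 3.33, 2.99 and 3.71 in WT and 4.32, 4.09 and 3.93 in dt27J, also without overlap (0.77, SE 0.25, adjusted p = 0.110). Its partner kinase Aurkb and the centromeric histone Cenpa overlapped. Aurkb read -0.94, -1.42 and 0.13 in WT and 0.38, 0.15 and -0.31 in dt27J, so WT 3 lay with the mutants. Cenpa did the same, at -0.53, -0.79 and 0.71 in WT against 1.11, 0.79 and 0.40 in dt27J. Cenpe, the kinetochore motor, stood at 0.71 on its brightest probe, where WT 3 lay above dt27J 3, and at 0.83 on a dimmer probe without overlap.

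Among the G2/M regulators, Cdk1, Ccnb1 and Ccna2 had the largest changes, and Ccnb2 and Cdc25c the smallest. Cdk1, the kinase that drives entry into mitosis, read -1.49, -1.56 and -0.87 on WT 1, 2 and 3 and 0.12, -0.31 and -0.52 on dt27J 1, 2 and 3. The groups did not overlap, and the change was 1.07 (SE 0.28, adjusted p = 0.0744), or 2.10-fold. Cyclin B1, its activator, had 3 tested probes with changes of 0.90, 1.09 and 1.17 (adjusted p between 0.0700 and 0.116), each without overlap. The gene table lists related-sequence names of cyclin B1 among its synonyms, and which copies the probes detect was not tested. Ccna2, which pairs with Cdk2 in S phase and with Cdk1 in G2, read 0.83, 0.92 and 1.34 in WT and 2.01, 1.76 and 1.69 in dt27J (0.79, SE 0.22, adjusted p = 0.0853).

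The kinases Melk and Pbk are found in dividing progenitors. Melk read -0.91, -0.93 and -0.83 in WT and -0.17, -0.20 and -0.18 in dt27J, with the arrays of each genotype within 0.1 of each other (0.70, SE 0.18, adjusted p = 0.0712). Pbk stood at 0.74 and did not overlap either. Foxm1, the transcription factor of the G2 wave, did overlap: it read -1.24, -1.26 and -0.41 in WT and 0.19, -0.33 and -0.79 in dt27J (0.66, SE 0.35, adjusted p = 0.274). Plk1, the Polo kinase, and Ccnb2, another B-type cyclin, stood at 0.65 and 0.62 with WT 3 above dt27J 3. Cdc25c, the phosphatase that activates Cdk1, was dim and scattered in WT, from -5.27 to -3.86, and stood at 0.18 (SE 0.37).

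The spindle genes and the checkpoint gave similar values. Nusap1, which bundles spindle microtubules at chromosomes, read -0.095, 0.018 and 0.12 in WT and 0.85, 0.79 and 0.92 in dt27J. Its groups were separate, and the change was 0.84 (SE 0.18, adjusted p = 0.0570), the closest to the threshold among the genes that missed it. Bub1b, the checkpoint protein BubR1, read -3.15, -2.76 and -2.51 in WT and -1.56, -2.20 and -1.31 in dt27J (1.12, SE 0.25, adjusted p = 0.0574). These 2 genes crossed the threshold with the authors' table, at adjusted p values of 0.0409 and 0.0475. Tpx2, the activator of Aurora A, did not overlap (0.56), whereas Aurka itself and Prc1, which crosslinks the central spindle, stood at 0.63 and 0.61 with WT 3 above dt27J 3.

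Bub1, the partner kinase in the checkpoint, had probes that disagreed. The brighter stood at 0.62 (SE 0.20, adjusted p = 0.116) without overlap, and the other, listed under a different transcript of the gene, at -0.24 (SE 0.24). Cdc20, which activates the anaphase-promoting complex, read 2.47, 2.38 and 3.89 in WT and 4.03, 3.82 and 3.24 in dt27J. WT 3 lay above 2 of the 3 dt27J arrays, and the change of 0.78 had the largest error of the 38 genes (SE 0.43, adjusted p = 0.286).

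Replication genes stood lower than mitosis genes, though in the same direction. The median change was 0.58 over 15 genes against 0.74 over 23, and 8 of 15 against 22 of 23 exceeded 0.5, a size that 16.3% of all tested probes exceeded. Only mitosis genes (3 of 23: Top2a, Bub1b and Cdk1) exceeded 1, beside 3.87% of all tested probes. None of the 15 passed the threshold, while 4 (26.7%) had an unadjusted p under 0.05, against 15 of the 23 mitosis genes (65.2%). All of these genes were higher in dt27J. Over all tested probes that share was 27.7% in either direction, and 3161 of the 26248 had such a p and were higher. The replication share was thus close to the background only where both directions are counted. The difference between the classes was not tested.

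The MCM helicase genes, whose products form a single hexamer, had changes from 0.33 to 0.75, and differences between them were not tested. Mcm3 read -2.18, -1.81 and -1.16 in WT and -1.12, -1.38 and -0.42 in dt27J (0.75, SE 0.21, adjusted p = 0.0802). The groups overlapped only through WT 3 and dt27J 2. Mcm4 read 3.32, 3.04 and 3.25 in WT and 3.82, 3.74 and 3.78 in dt27J, with no overlap (0.58, SE 0.19). Mcm2 did not overlap either, at a smaller change (0.33, SE 0.19, adjusted p = 0.293). For Mcm7 (0.66), Mcm6 (0.36) and Mcm5 (0.34) the groups overlapped, with dt27J 3 below WT 3. Cdc6, the loader of the helicase, stood at 0.72 and 0.96 on its probes, each without overlap. Gins2, a subunit of the complex that activates it, stood at 0.44.

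Genes of the clamp and of nucleotide supply differed in which arrays stood out. Rrm1, the large subunit of ribonucleotide reductase, read 1.88, 1.90 and 1.75 in WT and 2.73, 2.45 and 2.22 in dt27J (0.62, SE 0.19, adjusted p = 0.102). Rrm2, the small subunit that is made in S phase, read 0.78, 0.75 and 0.33 in WT and 0.94, 0.99 and 2.14 in dt27J. Its groups did not overlap, but dt27J 3 lay more than 1 above every other array, and the change was 0.74 (SE 0.34, adjusted p = 0.218). Tyms, thymidylate synthase, read 1.71, 1.29 and 2.16 in WT and 3.03, 2.80 and 1.7 in dt27J, so here dt27J 3 lay among the WT arrays (0.79, SE 0.40). A dimmer Tyms probe stood at 0.83, again with dt27J 3 below WT 3. Pcna, the sliding clamp, stood at 0.47, with dt27J 3 below WT 3.

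The regulators at the start of S phase ranged from the largest replication change to the smallest. Cyclin E2 read -3.41, -3.62 and -3.25 in WT and -1.78, -2.12 and -3.48 in dt27J, so dt27J 3 lay among the WT arrays (0.97, SE 0.38, adjusted p = 0.163). Its dimmer probe stood at 0.74. Cyclin E1 stood at 0.18 and 0.039 on its probes. E2f1, the activating E2F, stood at 0.085 (SE 0.31, adjusted p = 0.878) on the brighter probe and at -0.27 (SE 0.34) on the dimmer. Both E2f1 probes were lowest on dt27J 2 and highest on dt27J 3.

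**Figure D3:**
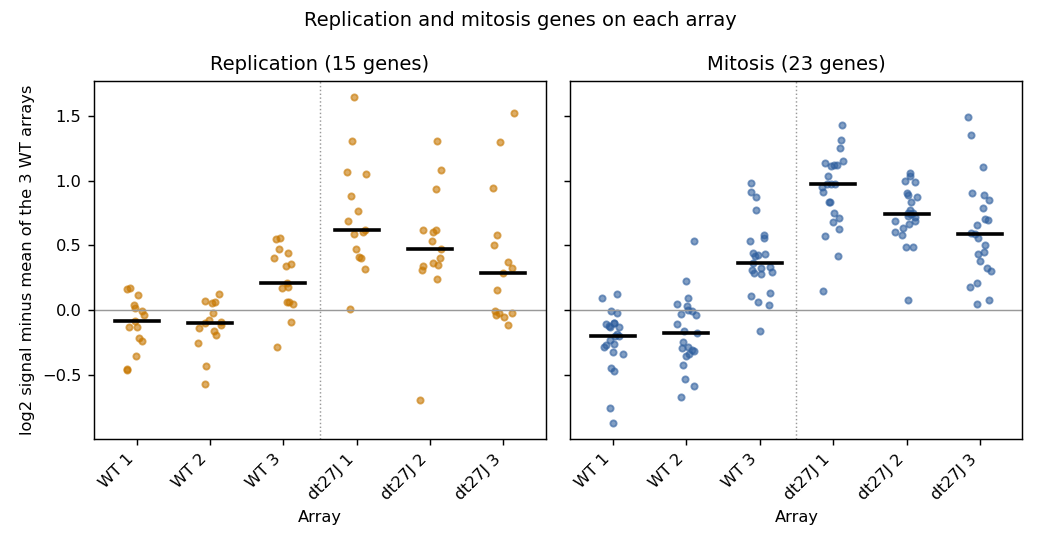
Each tested gene's log2 signal relative to its mean over the 3 WT arrays, by array, for 15 replication genes (left) and 23 mitosis genes (right); each point is a gene and the bar is the median. Medians run from -0.20 (WT 1) to 0.97 (dt27J 1) for mitosis and from -0.099 (WT 2) to 0.62 (dt27J 1) for replication, and WT 3 lies between the groups in both panels.

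Array by array, both classes gave the same order of genotypes, and mitosis genes spread wider. Relative to the WT mean, the median mitosis gene stood at -0.20, -0.18 and 0.36 on WT 1, 2 and 3 and at 0.97, 0.75 and 0.59 on dt27J 1, 2 and 3. The median replication gene stood at -0.085, -0.099 and 0.21 in WT and at 0.62, 0.47 and 0.29 in dt27J. WT 3 was the highest WT array and dt27J 3 the lowest mutant array in both classes. The mitosis median exceeded the replication median by 0.15 on WT 3 and by 0.35, 0.27 and 0.30 on the dt27J arrays, and lay below it by 0.11 and 0.078 on WT 1 and WT 2. WT 3 exceeded both other WT arrays for 31 of the 38 genes (81.6%), beside 39.2% of all tested probes.

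The genotype difference was larger within the first date than within the second for most members, but the test of that difference called none of them. Within the first date, 33 of the 49 member probes (67.3%) passed an adjusted p of 0.05 when those 4 arrays were fitted alone, all higher in dt27J, beside 12.7% of all tested probes called higher. Median changes were 1.04 for mitosis and 0.73 for replication genes, and 37 of 38 genes were positive. The second date has a single array of each genotype and so no test; its medians were 0.28 and -0.056 beside -0.13 for all tested probes, and 20 of 38 genes were positive. Changes were positive within both dates for 19 of 38 genes (50%), beside 24.5% of all tested probes; 13 of these were mitosis and 6 replication genes. Changes were negative within both dates for none of the 38, beside 32.3% of all tested probes. For 18 genes (47.4%) the first date was positive and the second negative, beside 25% of all probes. A test of the difference between dates (genotype by date interaction, limma) called 0 of the 49 probes at an adjusted p under 0.05, beside 0.831% of all probes. At an unadjusted p under 0.05 it gave 22 of the 49 (44.9%), beside 27.5% of all probes, and the smallest adjusted p was 0.0525, for Cdc20. The estimate was negative, meaning a smaller change in the second date, for 43 of the 49 (87.8%), beside 54.6% of all probes.

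**Figure D4:**
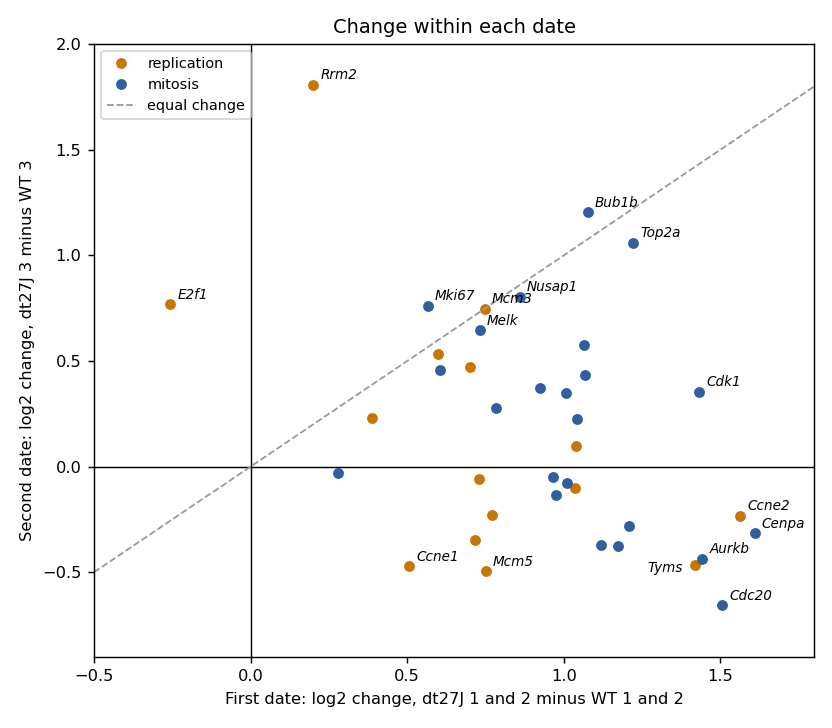
Log2 change within the first date (horizontal axis, 2 arrays per genotype) against the second (vertical axis, 1 array per genotype) for the 38 tested genes, replication in orange and mitosis in blue; the dashed line marks equal change. Bub1b, Top2a, Nusap1, Melk and Mcm3 lie near the line, while Cdc20, Aurkb, Cenpa, Tyms and Ccne2 are above 1.4 in the first date and below 0 in the second.

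Genes that kept their size on both dates came from both classes and from several steps of the cycle. Beside Top2a and Mki67 these were Bub1b (1.08 and 1.2 within the first and second dates), Nusap1 (0.86 and 0.80), Melk (0.73 and 0.65), Mcm3 (0.75 and 0.75), Mcm4 (0.60 and 0.53) and Tpx2 (0.61 and 0.46). These genes, and the ones furthest from them, were named after their values were seen. Cdc20 stood at 1.5 and -0.66, Cenpa at 1.61 and -0.32, Aurkb at 1.44 and -0.44, Tyms at 1.42 and -0.47, and Ccne2 at 1.56 and -0.23. Rrm2 went the other way, at 0.20 and 1.81. Among the genes with a negative second date, WT 3 stood above the mean of WT 1 and WT 2 by 1.47 for Cdc20, 1.37 for Cenpa, 1.31 for Aurkb, 0.66 for Tyms and 0.26 for Ccne2. Among those that kept their size, it stood above by 0.83 for Mcm3, 0.44 for Bub1b, 0.44 for Top2a, 0.16 for Nusap1, 0.088 for Melk, 0.069 for Mcm4 and 0.062 for Tpx2. These ranges overlap through Mcm3, Tyms and Ccne2.

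Other genes of the cell cycle, from lists written out by role, mostly had positive changes, of which few passed. For comparison with each list, 46.4% of all tested probes had a positive change and 1.31% were called higher. An unadjusted p under 0.05, in either direction, was found for 27.7% of them. Of 26 tested further replication genes, 26 had a positive change (median 0.44) and 2 passed, both higher. Uhrf1, which brings the maintenance methyltransferase to replicated DNA, read 0.80, 1.22 and 1.12 in WT and 2.61, 2.29 and 3.02 in dt27J and rose by 1.59 (SE 0.23, adjusted p = 0.0413). Dbf4, the activator of the kinase that fires origins, read -2.65, -2.66 and -2.66 in WT and -1.18, -1.56 and -1.35 in dt27J and rose by 1.29 (SE 0.20, adjusted p = 0.0442). Both genes were separate between genotypes and rose by more than any replication member changed.

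Of 36 tested further mitosis genes, 31 had a positive change (median 0.56), and 6 passed, all higher. The positive ones include Dlgap5 and Hmmr, each well above background on 1 of 3 WT arrays, which entered the test only through dt27J. Aspm, a spindle pole protein, read -4.70, -4.25 and -4.23 in WT and -2.60, -3.29 and -2.57 in dt27J and rose by 1.58 (SE 0.26, adjusted p = 0.0454). The others were the kinetochore subunit Spc25 (1.47), the cytokinesis scaffold Anln (1.43), the spindle protein Ckap2l (1.33), the centrosomal kinase Nek2 (1.1) and the condensin subunit Smc2 (0.99), with adjusted p values between 0.0472 and 0.0497. All 6 were positive within both dates, by 0.89 to 1.85 in the second. The 5 with a negative change, none past the threshold, were Ccnf (-0.45), Cdc25b (-0.12, every dt27J array below every WT array), Espl1 (-0.10), Smc4 (-0.097) and Zwint (-0.043).

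Regulators that hold or admit cells at G1 were mixed. Of 19 tested G1 cyclins and Rb and E2F family genes, 14 had a positive change (median 0.50), and Rbl1, the pocket protein p107, rose by 1.08 (SE 0.19, adjusted p = 0.0472). Among the positive ones was Cdc25a, well above background on 2 of 3 WT arrays, which entered the test only through dt27J. Of 6 CDK inhibitors measured in both genotypes, 4 had a positive change (median 0.55) and 0 passed (limma), while 3 had an unadjusted p under 0.05. Cdkn2a, which encodes p16 and p19, entered the test only through dt27J, since no WT array measured it well above background. It read -4.19, -5.14 and -5.11 on dt27J 1, 2 and 3, and is neither given a change nor counted among the 6. Cdkn1c, the inhibitor p57 of cells leaving the cycle, read 3.12, 2.66 and 4.32 in WT and 5.49, 5.18 and 5.03 in dt27J (1.86, SE 0.38, adjusted p = 0.0530). Of 10 tested checkpoint and DNA damage genes, 7 had a positive change (median 0.31) and none passed (limma), while 3 had an unadjusted p under 0.05. The checkpoint kinase Chek1, which had the smallest p there, stood at 0.71 (adjusted p = 0.0700).

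Summed markers of the tissues around the ganglion also differed between arrays, and not all followed the order of these genes. The summed signal of the 38 members, in multiples of the 75th percentile, was 106, 98.3 and 146 on WT 1, 2 and 3 and 198, 184 and 149 on dt27J 1, 2 and 3. That of 10 skeletal muscle markers was 14.7, 14.6 and 41.7 in WT and 45.4, 87.2 and 67.5 in dt27J. That of 4 of 5 muscle progenitor markers was 0.913, 1.11 and 1.18 in WT and 1.76, 1.83 and 2.82 in dt27J. Like the member sum, both muscle sums were highest in WT on WT 3, and every dt27J array lay above every WT array. Among the dt27J arrays, both muscle sums were lowest on dt27J 1, where the member sum was highest. By the test, the muscle genes Tcap, Tnnt3, Mb and Myh1 and the progenitor gene Myog rose. The other progenitor markers did not pass: Megf10 stood at 0.96, Myod1 at 0.013 and Pax7, the satellite cell marker, at -0.53. The progenitor sum is thus mostly that of Megf10 and Myog. For 7 fibroblast and meningeal markers the sums were 341, 299 and 602 in WT and 876, 949 and 473 in dt27J, and 0 of 7 passed (limma), with 4 at an unadjusted p under 0.05. The fibroblast sums, like those of the members, were lowest on WT 1 and 2 and highest on dt27J 1 and 2. Unlike the member sum, the fibroblast sum was lower on dt27J 3 than on WT 3.

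Endothelial markers and the summed macrophage signal also stood higher in dt27J. For 8 endothelial markers the sums were 16.4, 14.9 and 10.49 on WT 1, 2 and 3 and 29.7, 22.6 and 15.0 on dt27J 1, 2 and 3. All 8 had a positive change within both dates (median 0.78), and Tek passed. For 7 of 8 macrophage markers the sums lay between 5.41 and 6.06 in WT and were 10.7, 9.50 and 6.68 in dt27J, with every dt27J array above every WT array. Only Aif1 passed the threshold. Of these 7 markers, 6 had a positive change (median 0.37) and 1 a negative one (-0.18). Within the second date 3 of the 7 were positive, with a median of -0.13. The 11 tested Schwann cell and satellite glia markers summed to between 185 and 299 in WT and between 193 and 248 in dt27J. Of these, Egr2 and Ednrb rose by the test. Cdh19, well above background on 1 of 3 WT arrays, entered the test only through dt27J and is not counted as a rise. Sox10 was not tested. The 8 tested erythroid markers summed to between 89.9 and 105.2 in WT and to 178, 179 and 54.8 in dt27J, with 0 past the threshold or at an unadjusted p under 0.05 (limma). The erythroid sum is mostly that of its brightest marker, and the median change over the 8 was 0.16. The 10 sensory neuron markers summed to between 283 and 334 in WT and between 175 and 273 in dt27J, with Tlx3 among those lower by the test. The 11 tested spinal cord markers summed to 49.0 and 43.5 on WT 1 and 2, to 5.55 on WT 3 and to between 2.99 and 4.18 on the dt27J arrays, with Gpr17 lower by the test. The part of any of these cells in the changes of the cell cycle genes was not tested.

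Promoter sequences gave a feature that the choice of members did not use. The window is 250 bases before to 50 bases after a start in RefSeq, on build GRCm38.p6, and 31 of the 40 genes matched with 33 promoters, 14 of replication and 19 of mitosis genes. The motifs were searched on both strands. The CHR element, bound by DREAM and MuvB, was taken as TTTGAA and also in the form TTCGAA, and the CCAAT box by those letters. The E2F sites were TTCCCGC as one form, TTGGCGC as another, with TTCGCGC and finally TTGCCGC counted too. E2F matches can overlap each other and a CCAAT box. A CHR match lay in 14 of 19 mitosis promoters (73.7%) and 2 of 14 replication promoters (14.3%), beside 19.2% of all 32851 promoters in the table. E2F matches had the reverse order, in 9 of 14 replication promoters (64.3%) and 3 of 19 mitosis promoters (15.8%), beside 9.57% of all. The CCAAT box was frequent in both, in 16 of 19 and 10 of 14, beside 37.4% of all. Every mitosis promoter with a CHR match also held a CCAAT match. A pair of starts of Prc1 overlap and are counted separately. A match is a description of letters and no evidence of binding.

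The promoters below are those of the genes that passed, of the mitosis gene with the largest difference between dates, and of 2 MCM genes that differ in their second-date change. They are printed 5′ to 3′ in the direction of the gene, with all matches to the 3 motifs in capitals.
Top2a, chr11:99024140-99024439, minus strand: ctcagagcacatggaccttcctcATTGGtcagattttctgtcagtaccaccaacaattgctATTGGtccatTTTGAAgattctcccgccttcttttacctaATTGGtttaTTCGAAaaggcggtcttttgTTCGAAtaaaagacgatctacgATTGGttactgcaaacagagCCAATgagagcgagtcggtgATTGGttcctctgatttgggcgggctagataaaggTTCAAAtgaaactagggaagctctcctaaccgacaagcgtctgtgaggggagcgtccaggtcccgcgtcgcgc
Mki67, chr7:135716330-135716629, minus strand: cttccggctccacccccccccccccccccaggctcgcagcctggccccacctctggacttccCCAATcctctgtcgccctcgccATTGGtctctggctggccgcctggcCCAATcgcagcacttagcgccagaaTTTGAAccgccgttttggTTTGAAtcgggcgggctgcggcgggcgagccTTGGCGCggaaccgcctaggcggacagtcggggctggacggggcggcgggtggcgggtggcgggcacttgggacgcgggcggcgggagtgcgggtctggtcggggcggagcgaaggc
Cdc20, chr4:118437294-118437593, minus strand: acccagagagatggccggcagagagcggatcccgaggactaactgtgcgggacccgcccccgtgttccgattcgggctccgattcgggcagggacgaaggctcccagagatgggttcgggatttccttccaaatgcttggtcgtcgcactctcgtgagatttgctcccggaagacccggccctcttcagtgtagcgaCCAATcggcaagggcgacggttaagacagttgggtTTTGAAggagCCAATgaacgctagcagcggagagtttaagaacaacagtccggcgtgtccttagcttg
Mcm3, chr1:20820263-20820562, minus strand: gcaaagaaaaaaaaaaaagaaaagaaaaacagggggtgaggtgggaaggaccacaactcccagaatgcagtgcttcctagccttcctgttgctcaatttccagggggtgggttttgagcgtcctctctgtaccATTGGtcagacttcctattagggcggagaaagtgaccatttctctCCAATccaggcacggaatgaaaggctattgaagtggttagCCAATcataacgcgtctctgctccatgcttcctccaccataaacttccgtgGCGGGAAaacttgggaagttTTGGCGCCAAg
Mcm6, chr1:128359656-128359955, minus strand: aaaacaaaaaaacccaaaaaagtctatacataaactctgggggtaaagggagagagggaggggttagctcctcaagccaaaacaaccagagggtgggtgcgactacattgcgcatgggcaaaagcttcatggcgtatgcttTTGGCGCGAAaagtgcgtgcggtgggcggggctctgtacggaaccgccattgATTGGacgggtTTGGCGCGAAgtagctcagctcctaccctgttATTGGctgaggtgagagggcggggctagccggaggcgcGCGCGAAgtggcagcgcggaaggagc

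Top2a held 4 CHR and 6 CCAAT matches and no E2F match, the most of both motifs among the members. Mki67 held 2 CHR, 3 CCAAT and 1 E2F match, and Cdc20 1 CHR and 2 CCAAT matches. Mcm3 and Mcm6 held no CHR match and 3 and 5 E2F matches. How the matches relate to the size of the changes was not tested.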

How the data were processed

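Total RNA (300 ng per animal) was labelled with Cy3 and hybridised to 1 single-colour Agilent array per sample, per the labels. The scanner output was made with Agilent Feature Extraction 10.5.1.1 (submitters' processing notes and file headers). The deposited processed signal is a linear intensity, background-subtracted within the array and not normalized between arrays. The authors' series table holds log2 values centred on each probe's median, and no source used here states the normalization before that. Its column medians lie between -0.0041 and 0.0053, its sign follows the signal, and it served as an alternative only. Against the scanner log2 signal centred in the same way, its values had slopes of 0.71 (WT 2) to 0.76 (WT 3).

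Each processed signal was put on a log2 scale, and the array's 75th percentile was subtracted, taken over all non-control spots (a signal of 369.5 to 580). Outlier spots were left out and repeated spots averaged, which left 41086 of 41174 probes. Probes were named by unversioned accession through a RefSeq gene table of GRCm38.p6 (24844 named; 19381 of 26248 tested); the array's own annotation is on mm9. Tests used limma 3.58.1 in R 4.3.3 (statmod 1.5.0) with genotype and label date as terms, with Benjamini-Hochberg adjustment over all tested probes, a threshold of 0.05, 3 residual degrees of freedom and 3.74 from the prior. Errors are standard errors of that fit, and p-values measure the spread between animals. The number of arrays limits precision.

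Same-numbered arrays correlated at 0.219, -0.152 and 0.0625 in their deviations from the group means, so the numbers were not taken as pairs. The members, lists, motifs and tests were chosen with earlier results of these data known. Every member may be named. Of the other cell cycle lists, genes past the threshold and the 3 with the smallest p were to be named. Beyond that rule, further mitosis genes with a negative change were named after their values were seen. So were some genes that entered the test only through dt27J. Alternatives covered normalization, background correction, the authors' table, filters, blocks, array weights, the variance prior and left-out arrays. The fits were tested on simulated data. Some marker genes are not reported here by name.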

Additional observations from a re-analysis of the deposited data

How the results depend on the processing

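The direction of the classes held under every setting run, and the counts past the threshold did not. The median change lay between 0.47 and 0.68 for replication genes and between 0.67 and 0.92 for mitosis genes over the settings that kept all arrays, and it was 0.73 and 1.04 without the second date. Leaving out each array in turn gave 0.44 to 0.73 and 0.61 to 1.04. Leaving out WT 3 or dt27J 3 equals leaving out the second date, since the date term takes up the lone array.

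Counts of calls, as member probes, member genes and all probes tested, were 2, 2 and 838 in the values reported, where a gene counts if any of its probes passed (by the brightest probe alone, 1 gene). They were 1, 1 and 358 after normexp, 4, 4 and 1391 after normexp with high local backgrounds replaced, and 0, 0 and 0 without a filter on dim probes (23 member probes and 8485 probes at an unadjusted p under 0.05, limma). With the values of the authors' table, 4 and 4 members passed. No count over all probes is given for that setting, so these are not set against a background. They were 0, 0 and 14 without the date block (25 member probes at an unadjusted p under 0.05). With the replicate number as a block they were 0, 0 and 2 (21 member probes at an unadjusted p under 0.05); the numbers share no more than a number. Array weights gave 44, 37 and 12199, with a weight of 67.4 on WT 1 and 0.188 on each array of the second date, and the weights did not converge. Without the second date they were 33, 29 and 6805. Leaving out each array in turn gave 0 to 33, 0 to 29 and 0 to 6805. The cause of these shifts was not tested.

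Signs turned only on small changes. E2f1's brighter probe stood at -0.078 after normexp, -0.099 with array weights, -0.26 without the second date and at -0.26 to 0.38 with an array left out. The dimmer Top2a probe stood at -0.020 after normexp with backgrounds replaced, -0.22 with array weights, and -0.32 to 0.34 with an array left out (negative without WT 2 or dt27J 2). With an array left out, Ccne1's dimmer probe ranged from -0.091 to 0.15 and Cdc25c from -0.26 to 0.55, both negative only without WT 1. Dim probes and 3 animals per genotype limit what these arrays resolve.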
